A study of Mus musculus with 6 samples.

Results

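A set of 8 genes outside the block of major urinary protein (Mup) genes on chromosome 4 was nearly silent, or strongly reduced, in the livers of either SCADD or WT mice; they are not the only such genes. They were Dnah17, Iqca, Cox6b2, Tspyl4, Lysmd2, Erp27, Eif4ebp3 and D330045A20Rik, taken from the 55487 genes in the deposited tables by their symbols. They were chosen by their read counts in the SCADD and WT livers, that is on the comparison itself, so their levels are given below as a description, with no test. SCADD mice (BALB_cBYJ) model short-chain acyl-CoA dehydrogenase deficiency, and WT mice (BALB_cJ) are a related BALB/c substrain. Polyadenylated RNA was sequenced from frozen liver (20 mg) of 3 SCADD and 3 WT males, all 8 weeks old and kept on standard chow under a 12/12 h light-dark cycle, and the design text calls the 3 libraries of a group biological replicates. Every SCADD animal is of one substrain and every WT animal of the other, so the enzyme defect and every other difference between the substrains cannot be told apart.

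Each library held 16948986 to 23912744 sense-strand gene reads in SCADD and 23991104 to 27148756 in WT livers. Unmapped reads made up 25.1% to 36.6% of SCADD libraries and 13.6% to 16.4% of WT libraries, and the part of this difference in the values below was not tested. Acads, the gene for short-chain acyl-CoA dehydrogenase, had 47.7, 57.6 and 37.1 TPM (transcript abundance scaled for length and depth) in SCADD livers, against 109, 90.3 and 102 TPM in WT livers, so the labels and this gene went the same way. Hepatocyte markers summed to 103400 to 142869 CPM (read counts scaled to a common library size) in SCADD and 113478 to 164026 CPM in WT livers. WT replicate 1 stood apart in holding 43 counts of the secretory-cell gene Agr2, of which no other library had any, and 665 of the 695 WT counts of Dmbt1. It was also the only WT library with reads of the pancreatic hormone genes Ins2 (41) and Ppy (40). Whether these reads came from another tissue was not tested. None of the 8 genes was high in that library alone.

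Apart from D330045A20Rik, which was assigned no family here, the 8 genes belong to unrelated families. Dnah17 and Iqca encode parts of the axoneme, the microtubule core of motile cilia and sperm tails: axonemal dynein heavy chains are the motors that slide its microtubules, and the nexin-dynein regulatory complex links neighbouring doublets and controls the motors. Cox6b2 is the testis-enriched isoform of a subunit of cytochrome c oxidase, the last complex of the respiratory chain, whose widely expressed isoform is Cox6b1. Tspyl4 belongs to the nucleosome assembly protein (NAP) and TSPY-like family of histone-binding proteins, Lysmd2 carries a LysM domain, Erp27 is a member of the protein disulfide isomerase family that lacks the catalytic cysteines and binds Pdia3, and Eif4ebp3 is one of the 4E-binding proteins, which hold the cap-binding factor eIF4E and so restrain translation under the control of mTORC1. Liver parenchyma carries no motile cilia, and the axonemal genes and Cox6b2 are best known from testis.

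They lay on 8 chromosomes, 4 on the plus and 4 on the minus strand. Start-site windows of 300 bases, 250 before and 50 after the annotated start, were found in the RefSeq promoter table (GRCm38.p6) for 4 of them and are shown so that the start regions of genes moving in the same contrast can be compared. Capitals mark any match, on either strand, to the letters of the TATA box (TATAAA), of the box named after CCAAT, or of the GC box (GGGCGG); none of these motifs contains another.
Dnah17: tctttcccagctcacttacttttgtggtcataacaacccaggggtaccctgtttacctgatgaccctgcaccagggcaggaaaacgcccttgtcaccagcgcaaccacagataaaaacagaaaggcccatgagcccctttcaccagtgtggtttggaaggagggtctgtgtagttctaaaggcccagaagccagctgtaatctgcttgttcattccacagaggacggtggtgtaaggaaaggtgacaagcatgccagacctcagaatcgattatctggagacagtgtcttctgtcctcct
Iqca: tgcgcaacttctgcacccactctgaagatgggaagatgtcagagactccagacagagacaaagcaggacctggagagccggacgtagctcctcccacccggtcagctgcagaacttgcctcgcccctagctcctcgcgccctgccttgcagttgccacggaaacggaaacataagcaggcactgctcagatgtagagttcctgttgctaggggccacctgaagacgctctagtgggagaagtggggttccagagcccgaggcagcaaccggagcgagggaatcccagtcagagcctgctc
Cox6b2: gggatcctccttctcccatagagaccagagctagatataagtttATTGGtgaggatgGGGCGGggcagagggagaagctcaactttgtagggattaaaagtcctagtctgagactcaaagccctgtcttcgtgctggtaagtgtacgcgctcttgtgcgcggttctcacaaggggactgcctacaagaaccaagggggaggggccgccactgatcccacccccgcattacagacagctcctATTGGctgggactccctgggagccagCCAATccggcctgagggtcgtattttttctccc
Tspyl4: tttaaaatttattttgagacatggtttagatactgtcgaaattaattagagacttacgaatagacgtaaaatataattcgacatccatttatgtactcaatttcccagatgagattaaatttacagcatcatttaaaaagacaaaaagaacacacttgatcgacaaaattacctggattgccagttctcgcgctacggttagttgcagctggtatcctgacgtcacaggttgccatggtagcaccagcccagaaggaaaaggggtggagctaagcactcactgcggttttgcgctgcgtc
The Dnah17 window is chr11:118129170-118129469 (minus strand), the Iqca window chr1:90153387-90153686 (minus strand), the Cox6b2 window chr7:4753045-4753344 (minus strand) and the Tspyl4 window chr10:34297171-34297470 (plus strand). Dnah17 as placed below starts at 118130634 on the minus strand, so its window lies inside that gene body and not at that start. Only the Cox6b2 window among these 4 held any of the motifs, with 3 matches to CCAAT and 1 to the GC box. Over all 32851 windows in the table, 37.4% held a CCAAT match, 35.7% a GC box and 13.6% a TATA box. The Tspyl4 window had 12 CpG sites, 1.001 times the number its base composition predicts, whereas the Dnah17 window had 4, or 0.208 times; the Iqca window held 13 (0.487 times) and the Cox6b2 window 10 (0.432 times), beside a median of 7 and 0.384 over all windows. A match is a string of letters and not evidence of binding.

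Dnah17 was the 1 gene of the 8 that was higher in SCADD livers. The gene lies on chromosome 11 from 118021723 to 118130634 (GRCm38, minus strand) and its long transcripts have 81 exons. It had 239, 314 and 127 sense reads in SCADD livers, against 0, 0 and 0 in WT livers. All 3 SCADD libraries held more than 100 reads and no WT library held any. In CPM, scaled by TMM-normalised library size, the mean was 10.8 ± 3.59 in SCADD livers and 0 in WT livers (SD, n = 3 each), and 3 reads over the WT group, the limit a count of 0 allows, correspond to 0.0389 CPM. Set against 3 counts over the WT group, Dnah17 was at least 283-fold higher in SCADD livers, with no error on the SCADD counts, and the lower limit of the exact 95% interval was 229; both cover counting error only. The first of these values was 182 without WT replicate 1 and 185 without WT replicate 3. Per length it stayed low, with 0.66, 1.03 and 0.38 TPM in SCADD livers against 0.01, 0 and 0 TPM in WT livers.

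The Dnah17 reads lay on the gene's own strand. In SCADD livers 94.3% of its stranded reads were sense, and the opposite strand held 14, 11 and 16 reads in SCADD against 20, 19 and 31 in WT livers. At its 3′ end the gene shares 93 exonic bases with Pgs1, a cardiolipin-synthesis gene on the plus strand, which had 117, 100 and 82 sense reads in SCADD and 133, 96 and 152 in WT livers. The annotated antisense gene Gm11738 inside Dnah17 had no sense read in any of the 6 libraries, and 15777 of the 16126 exonic bases of Dnah17 are shared with no other gene. RSEM, which assigns reads to transcripts, gave 195, 251 and 98 expected counts in SCADD livers against 2, 1 and 1 in WT livers. The length it used in SCADD livers, averaged over transcripts by abundance, was 13612 to 13751 bases, that of the 81-exon transcripts rather than of the 762-base shortest one. With RSEM the pooled ratio was 170 (95% exact interval 65.9 to 625), and with counts that ignore strand it was 156 (66.4 to 481), each from 4 or 5 WT reads.

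Iqca showed the opposite pattern and was as close to absent in SCADD livers. It lies on chromosome 1 from 90042132 to 90153401 (minus strand), with up to 19 exons. It had 2, 0 and 0 sense reads in SCADD livers, against 167, 146 and 151 in WT livers. The WT libraries lay close together, and the only SCADD reads were in replicate 1. The level was 0.0272 ± 0.0471 CPM in SCADD livers and 6.03 ± 0.357 CPM in WT livers (SD, n = 3 each). The ratio of pooled counts, adjusted for library size, was 0.00538 (95% exact interval 0.000649 to 0.0195); without SCADD replicate 1 the SCADD group was at 0 and the ratio at most 0.0134 against 3 counts over the remaining SCADD libraries (upper exact 95% limit 0.0165). No library had a read on the opposite strand, no exonic base is shared with another gene, and the TPM values were 0.05, 0 and 0 in SCADD livers against 4.93, 4.27 and 3.35 in WT livers.

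D330045A20Rik, a gene on the X chromosome (139480367 to 139554582, plus strand), came next. It had 5, 1 and 2 sense reads in SCADD livers, against 153, 155 and 149 in WT livers. Each WT library held about the same number of reads, and each SCADD library held 5 or fewer. The level was 0.1251 ± 0.0784 CPM in SCADD livers and 5.97 ± 0.700 CPM in WT livers (SD, n = 3 each), a fitted log2 fold change of -5.47 (SE 0.35), or 0.0225-fold. The estimate was -6.13 without SCADD replicate 1, the library with most of the SCADD reads. Per length it had 0.06, 0.02 and 0.01 TPM in SCADD livers, against 1.33, 1.33 and 1.25 TPM in WT livers.

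Cox6b2 was reduced in SCADD livers but still read in every library. It is a short gene on chromosome 7 (4751792 to 4753094, minus strand). It had 26, 13 and 12 sense reads in SCADD livers, against 412, 313 and 453 in WT livers. No SCADD library came near the lowest WT library. The level was 0.806 ± 0.230 CPM in SCADD livers and 15.2 ± 1.68 CPM in WT livers (SD, n = 3 each), which makes a log2 fold change of -4.21 (SE 0.22), or 0.0542-fold. Per length it had 2.76, 1.56 and 1.03 TPM in SCADD livers, against 35.5, 30.1 and 36.7 TPM in WT livers.

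Tspyl4 is a gene of essentially 1 exon on chromosome 10 (34297442 to 34301320, plus strand), within the body of Nt5dc1 on the other strand. It had 28, 16 and 18 sense reads in SCADD livers, against 454, 263 and 270 in WT livers. WT replicate 1 was the highest library, and the other WT libraries still lay well above all 3 SCADD libraries. The level was 1.005 ± 0.217 CPM in SCADD livers and 12.7 ± 3.31 CPM in WT livers (SD, n = 3 each), which makes a log2 fold change of -3.66 (SE 0.26), or 0.0794-fold; over 15 alternative settings, which include leaving out each library, the estimate stayed between -3.79 and -3.43. Nt5dc1, whose exons share no base with Tspyl4, averaged 20.7 CPM in SCADD livers and 17.6 CPM in WT livers (log2 fold change 0.23, SE 0.13, adjusted p = 0.327 in edgeR). The annotated antisense gene Gm47512 shares 1466 of the 3879 bases of Tspyl4 and had 0, 0 and 0 sense reads of its own in SCADD livers, against 2, 1 and 2 in WT livers. The Tspyl4-strand reads inside it numbered 8, 4 and 7 in SCADD livers and 135, 74 and 78 in WT livers.

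Lysmd2 and Erp27 were low in both groups and lower in SCADD livers. Lysmd2 (chromosome 9, 75625741 to 75637771, plus strand) had 6, 3 and 7 sense reads in SCADD livers, against 46, 44 and 102 in WT livers. WT replicate 3 held more than the other WT libraries together, and the lowest WT library was still far above the highest SCADD library. The log2 fold change was -3.22 (SE 0.47), or 0.108-fold, with 0.274 ± 0.148 CPM in SCADD and 2.47 ± 1.18 CPM in WT livers (SD, n = 3 each). Erp27 (chromosome 6, 136907311 to 136922180, minus strand) had 6, 7 and 11 sense reads in SCADD livers, against 89, 63 and 95 in WT livers. Its SCADD and WT libraries did not overlap either, and its log2 fold change of -2.99 (SE 0.34), or 0.126-fold, was the smallest of the 8 with sense counts. With RSEM expected counts it was -3.00, and that of Eif4ebp3 was smaller, at -2.44. Without WT replicate 3 it was -2.90, and that of Lysmd2 was smaller, at -2.75. The level of Erp27 was 0.419 ± 0.232 CPM in SCADD livers and 3.18 ± 0.407 CPM in WT livers (SD, n = 3 each).

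Eif4ebp3 is the member whose level is uncertain, because the 2 ways of counting gave very different numbers. It lies on chromosome 18 (36664060 to 36665917, plus strand), where the readthrough gene AC115631.1 on the same strand shares 501 of its 744 exonic bases. STAR's gene counts leave out reads that fall on more than 1 gene, and by them Eif4ebp3 had 7, 2 and 5 sense reads in SCADD livers, against 63, 27 and 85 in WT livers. RSEM, which divides such reads among genes, gave 223, 41.2 and 100 expected counts in SCADD livers, against 931, 406 and 1138 in WT livers. The pooled RSEM value was 26.03 times the STAR count in SCADD livers and 14.1 times in WT livers, while for the other 7 genes it was 0.72 to 1.0 times wherever a group had reads. The groups did not overlap by either method. The log2 fold change was -3.27 (SE 0.49) with STAR counts and -2.44 with RSEM, so the reduction was smaller where shared reads were kept. AC115631.1 itself was given 73.7, 77.5 and 53.2 expected counts in SCADD livers and 117, 89.4 and 120 in WT livers by RSEM.

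**Figure D1:**
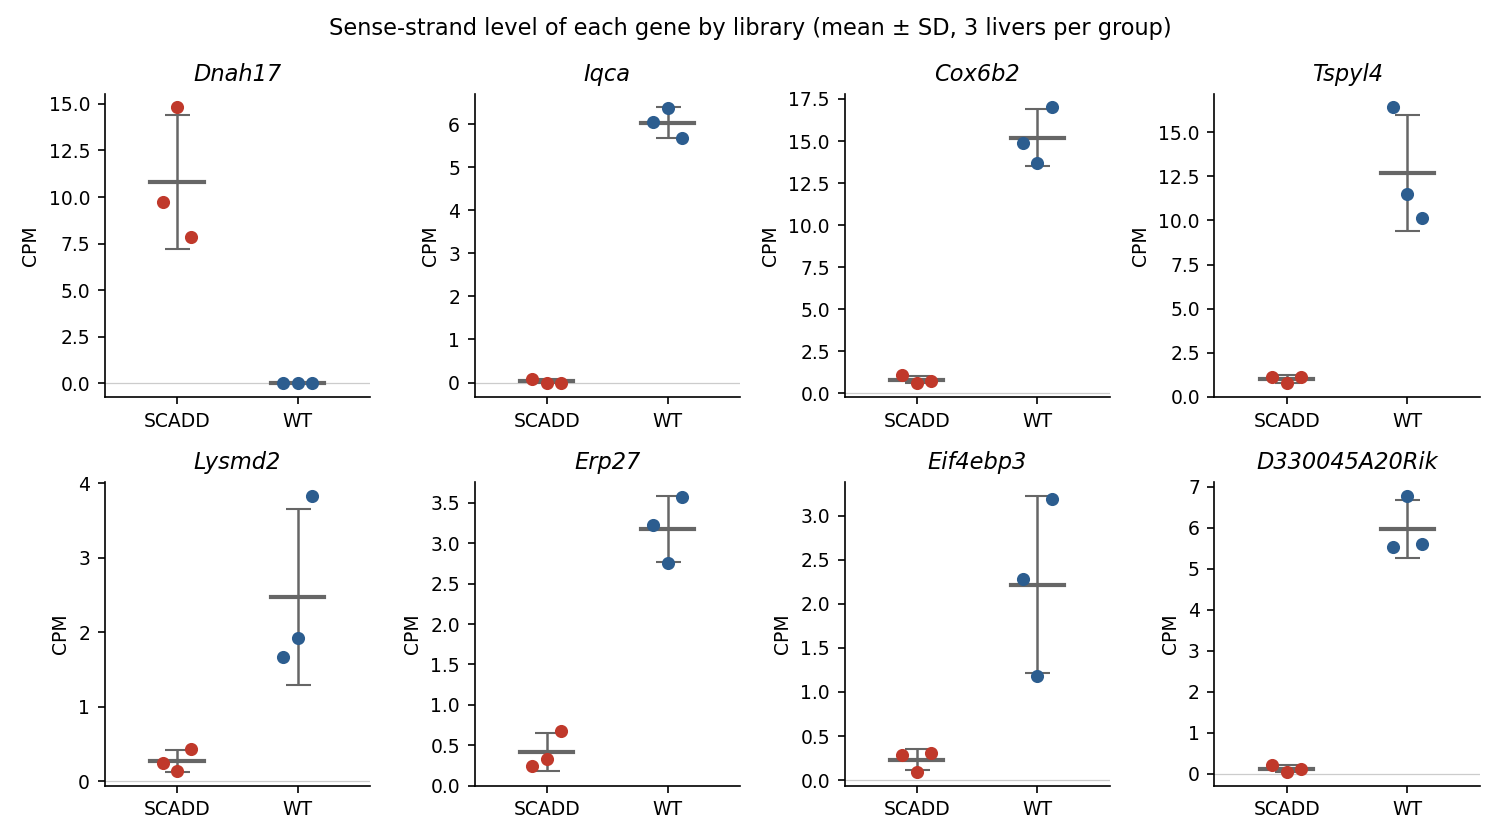
Sense-strand level of each of the 8 genes in CPM (read counts scaled to a common library size, linear axis, a separate scale in each panel), with SCADD livers on the left and WT livers on the right; points are libraries, the wide bar is the mean and the whiskers are the SD (n = 3 each). Dnah17 is at 0 in all 3 WT livers, Iqca is at or near 0 in all 3 SCADD livers, and in no panel do the groups overlap.

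The label of near on-off genes fitted some members better than others. With at most 3 pooled reads in one group, only Dnah17 and Iqca among the 8 were on-off. In the other 6 the SCADD group kept 8 to 62 pooled sense reads, and the levels fitted to sense counts were 0.0225 to 0.126 of those in WT livers. With RSEM, Eif4ebp3 had 364 pooled expected counts in SCADD livers and a smaller reduction, a log2 fold change of -2.44. Among the 13498 genes tested, ordered by the size of the fall in SCADD livers, Iqca held rank 2, D330045A20Rik rank 5 and Erp27 rank 28. Of these 13498 genes, 7.02% passed edgeR's quasi-likelihood test at a threshold of 0.05 on the adjusted p, 4.22% being higher and 2.8% lower in SCADD livers (569 and 378 genes, or 470 and 482 with upper-quartile scaling), and the libraries of the groups did not overlap in 28% of them. All 8 members had groups that did not overlap, which their choice had fixed.

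Across all genes, 21 had at most 3 pooled sense reads in one group and at least 100 in the other. The Mup block held 16 of these, and 5 lay elsewhere. Besides Dnah17 and Iqca the 5 comprised AC165951.1, Grm8 and Dmbt1. AC165951.1, annotated as an antisense transcript on chromosome 17, had 222, 219 and 182 sense reads in SCADD livers, against none in the 3 WT livers. Grm8, a metabotropic glutamate receptor gene, had 0, 0 and 2 reads in SCADD livers, against 32, 25 and 45 in WT livers, a ratio of 0.0245 (95% exact interval 0.00292 to 0.0907). Dmbt1, a mucosal glycoprotein gene, had 0, 1 and 1 reads in SCADD livers, against 665, 21 and 9 in WT livers, so that WT replicate 1 carried nearly all of its counts. When 30 reads in the high group were enough, 24 genes lay outside the Mup block, 18 of them low in SCADD and 6 low in WT livers. Several of the 18 rested on WT replicate 1, such as Ins2, with 41, 0 and 0 reads in WT livers. Without that library, an alternative added after the data were seen, 8 of the 18 still met the limits at 30 reads. At 100 reads, 1 of the 3 low in SCADD livers, Iqca, still met them. The limits were not scaled to the smaller WT group, so genes spread over all 3 WT libraries could also drop out. Grm8 did so at 100, and Zfp433, with 10, 13 and 8 reads in WT livers, at 30.

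**Figure D2:**
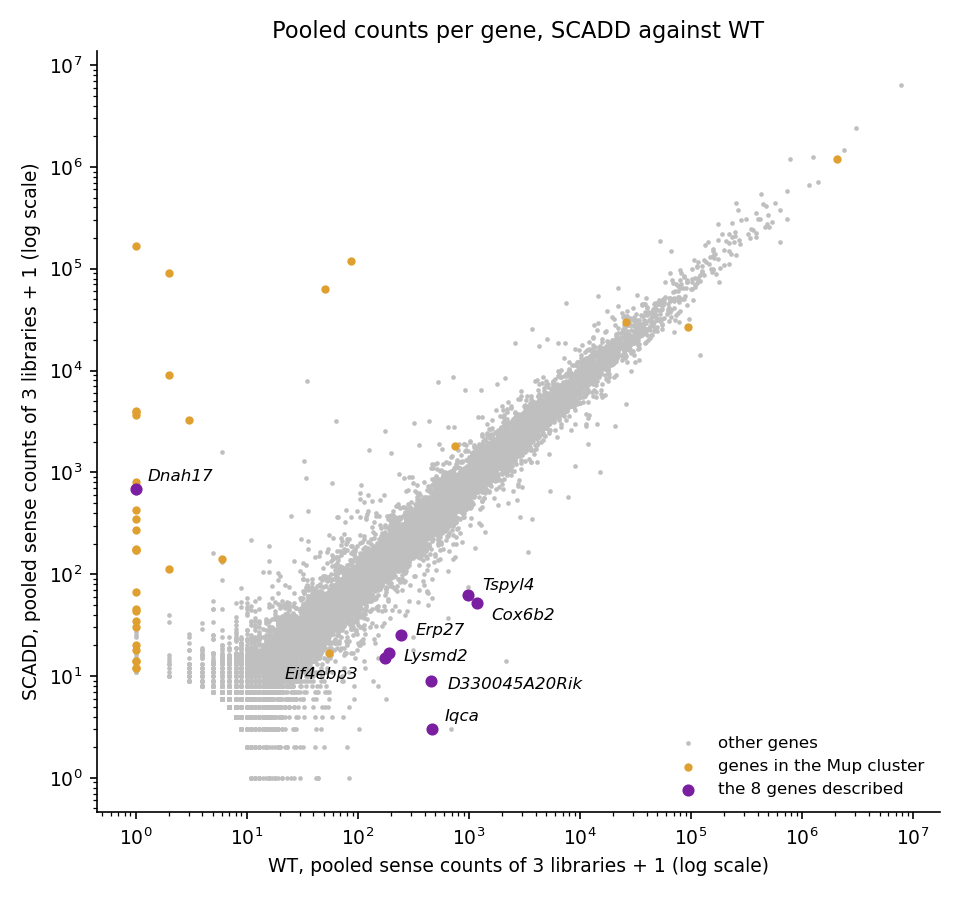
Pooled sense counts of the 3 SCADD libraries plus 1 (vertical, log scale) against those of the 3 WT libraries plus 1 (horizontal, log scale) for every gene with 10 or more counts in all. Dnah17 sits on the left edge with 0 WT counts, among genes of the Mup block, while the other 7 genes lie below the main cloud, Iqca lowest with 2 SCADD counts.

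By TPM, which is per length, the order of the 8 genes differed between the groups. In SCADD livers Eif4ebp3 came first (10.1 ± 6.89 TPM, by RSEM's division of shared reads), then Cox6b2 (1.78 ± 0.886), Dnah17 (0.690 ± 0.326), Tspyl4, Erp27, Lysmd2, D330045A20Rik and Iqca. The ranges of libraries did not overlap only between Eif4ebp3 and Cox6b2 and between Lysmd2 and D330045A20Rik, so the other neighbours in that order did not differ beyond their spread. In WT livers Eif4ebp3 (58.5 ± 22.8 TPM) and Cox6b2 (34.1 ± 3.48) led with overlapping ranges, followed by Iqca (4.18 ± 0.794), Tspyl4 (4.14 ± 0.921), Erp27 (2.99 ± 0.488), Lysmd2 (2.10 ± 1.01), D330045A20Rik (1.303 ± 0.0462) and Dnah17. Iqca and Tspyl4 overlapped, as did Erp27 and Lysmd2 (SD, n = 3 in each group).

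Genes with the most similar profile over the 6 libraries were found by Euclidean distance of log2 CPM, as a description. Nearest to Dnah17 was Obp2a, an odorant-binding lipocalin gene (distance 2.60), which averaged 25.4 CPM in SCADD and 0.0667 CPM in WT livers, followed by Zhx2, a zinc-finger and homeobox repressor gene, with 3.39 CPM in SCADD and 0.135 CPM in WT livers. S100g was among the 2 nearest genes to Iqca (distance 3.88) and Adgrf1 among the 2 nearest to D330045A20Rik (3.26). Tbc1d30 and the epithelial cadherin gene Cdh1 were the 2 nearest genes to both Cox6b2 and Tspyl4; Tbc1d30 had 0.917 CPM in SCADD and 5.96 CPM in WT livers. Gspt2, a translation release factor gene, was nearest to Lysmd2 (1.61) and Erp27 (1.27), and Gstp2 to Eif4ebp3 (1.36).

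The relatives and partners of the members, which the choice did not use, passed the test about as often as all genes did. No family list was made for D330045A20Rik. Of 130 genes on 9 family lists, 84 could be tested and 7 passed at an adjusted p under 0.05 (edgeR), 5 higher and 2 lower in SCADD livers, beside 7.02% of all genes. The median log2 fold change of the 84 was -0.02, against -0.00078 for all genes tested. The number called was 12 without SCADD replicate 3 and 4 without WT replicate 3.

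Among axonemal dynein heavy chains, Dnah17 stood almost alone. Of the 14 other heavy chain genes listed, 9 had fewer than 10 reads over all 6 libraries and 1 could be tested. That gene, Dnah8, another outer-arm chain known from sperm, had 1.55, 2.22 and 0.931 CPM in SCADD livers, against 0.362, 0.481 and 0.375 CPM in WT livers. The groups did not overlap in CPM, and Dnah8 rose by a log2 fold change of 1.96 (SE 0.38, with adjusted p = 0.0118 in edgeR). Without WT replicate 3 the adjusted p (edgeR) was 0.0542. In TPM the groups overlapped, with 0.54, 0.89 and 0.22 in SCADD livers against 0.29, 0.26 and 0.1 in WT livers. Dnah3 had 14 pooled reads in SCADD livers and 0 in WT livers, too few to test.

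Among 13 dynein intermediate and light chains tested, 2 rose and 1 fell. Dnaic1, an intermediate chain of the ciliary outer arm, fell to 0.245, 0.142 and 0.248 CPM in SCADD livers, against 29.9, 34.3 and 20.0 CPM in WT livers, a log2 fold change of -7.02. So the heavy chain Dnah17 was near absent in WT livers and the intermediate chain Dnaic1 nearly so in SCADD livers. The light chains Dynll2 and Dynlrb1, which also serve cytoplasmic dynein, rose by log2 fold changes of 0.68 (adjusted p = 0.0084 in edgeR) and 0.67 (adjusted p = 0.0129 in edgeR). Dynll2 was at an adjusted p of 0.0501 without WT replicate 2, and Dynlrb1 at 0.0737 without SCADD replicate 1 and 0.0721 without WT replicate 3.

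None of 4 dynein assembly factors tested passed with edgeR, with none at an unadjusted p under 0.05 and none by DESeq2 or limma-voom. The smallest adjusted p-values (edgeR) among them were those of Spag1 (0.511) and Ruvbl1 (0.753). None of the 3 members tested of the nexin-dynein regulatory complex, to which Iqca is assigned from work in the alga Chlamydomonas, passed with edgeR, 1 was at an unadjusted p under 0.05, and none passed by DESeq2 or limma-voom. In that complex Iqcg had a log2 fold change of -0.60 (SE 0.27, with adjusted p = 0.216 in edgeR) and Drc3 one of 0.48 (SE 0.29, with adjusted p = 0.368 in edgeR).

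Markers of multiciliated cells were scarce in both groups. Of 18 listed, 6 had no read in any library and 16 fewer than 10 over all 6, and their sum was 0.236 to 0.612 CPM in SCADD livers against 1.28 to 2.60 CPM in WT livers. The 1 marker that could be tested, the radial-spoke gene Rsph9, fell by 2.67 on the log2 scale (SE 0.48, with adjusted p = 0.0085 in edgeR). Rsph9 had 0.163, 0.0472 and 0.310 CPM in SCADD livers, against 1.19, 0.874 and 1.13 CPM in WT livers. Together with Tppp3, at 1.12 CPM in WT replicate 1, it made up most of the WT sums, so these do not describe the list as a whole. Of 12 male germ cell markers 10 had no read, and the list summed to 0.0472 to 0.124 CPM in SCADD livers against 0.0874 to 0.188 CPM in WT livers. In a bulk tissue, fewer cells of a type and less RNA per cell cannot be told apart.

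Cox6b2, chosen for its fall, is set here beside the other subunits of its complex. None of the 16 other cytochrome c oxidase subunits tested passed with edgeR, none was at an unadjusted p under 0.05, and none passed by DESeq2 or limma-voom. Their log2 fold changes ran from -0.39 to 0.13 with a median of -0.07, and the smallest adjusted p-values (edgeR) were 0.415 for Cox7a2l and 0.416 for Cox7b. The widely expressed isoform Cox6b1 had 607, 575 and 460 TPM in SCADD livers, against 554, 605 and 502 TPM in WT livers. Its groups overlapped, and its log2 fold change was 0.0014 (SE 0.14, with adjusted p = 0.997 in edgeR). The Cox6b2 level was thus small beside that of Cox6b1 in both groups, at 1.78 TPM in SCADD and 34.1 TPM in WT livers.

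Of 6 genes tested in the NAP and TSPY-like family, 1 passed. Nap1l3, a nucleosome assembly protein gene known from neurons, fell to 0.612, 0.330 and 0.558 CPM in SCADD livers, against 1.16, 1.22 and 1.502 CPM in WT livers, a log2 fold change of -1.36 (SE 0.33, with adjusted p = 0.0338 in edgeR). The call was lost without SCADD replicate 1 (0.0689), SCADD replicate 2 (0.0893), WT replicate 1 (0.0547), WT replicate 2 (0.1002) or WT replicate 3 (0.124). Tspyl1, the relative that lies 12.2 kb upstream of Tspyl4 on the same strand, had 3.90, 4.93 and 2.81 TPM in SCADD livers, against 5.35, 4.40 and 4.51 TPM in WT livers. Its groups overlapped, and its log2 fold change was -0.24 (SE 0.14, with adjusted p = 0.348 in edgeR).

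None of the 5 LysM domain genes passed with edgeR; 1 was at an unadjusted p under 0.05 and none passed by DESeq2 or limma-voom. The smallest adjusted p-values (edgeR) were those of Oxr1, an oxidation resistance gene (log2 fold change 0.33, 0.145), and Lysmd4 (-0.32, 0.310). Of 17 protein disulfide isomerases and partners, 1 passed, 8 were at an unadjusted p under 0.05 (edgeR) and the median log2 fold change was -0.25. The log2 fold changes ran from -0.81 for Pdia6 (adjusted p = 0.0529 in edgeR) to 1.26 for Pdilt. Pdilt, an isomerase-like gene known from testis, rose to 15.8, 14.2 and 21.1 CPM in SCADD livers, against 7.42, 5.99 and 7.77 CPM in WT livers, a log2 fold change of 1.26 (SE 0.18, with adjusted p = 0.00283 in edgeR). Pdia3, the known partner of Erp27, had 206, 239 and 227 CPM in SCADD livers against 253, 361 and 404 CPM in WT livers, with a log2 fold change of -0.60 (SE 0.19) that did not pass (adjusted p = 0.0801 in edgeR). DESeq2 called 5 of the 17.

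Of 19 genes of the 4E-binding proteins, the eIF4F cap complex and mTORC1, 1 passed and 7 were at an unadjusted p under 0.05 (edgeR). The median log2 fold change was 0.22. Mtor, the kinase of mTORC1, rose to 39.1, 36.8 and 36.0 CPM in SCADD livers, against 23.0, 18.7 and 21.4 CPM in WT livers, a log2 fold change of 0.83 (SE 0.13, with adjusted p = 0.00396 in edgeR). The paralogs of Eif4ebp3 did not follow it: Eif4ebp1 had a log2 fold change of 0.16 (SE 0.12, with adjusted p = 0.465 in edgeR) and Eif4ebp2 one of 0.30 (SE 0.18, with adjusted p = 0.366 in edgeR).

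**Figure D3:**
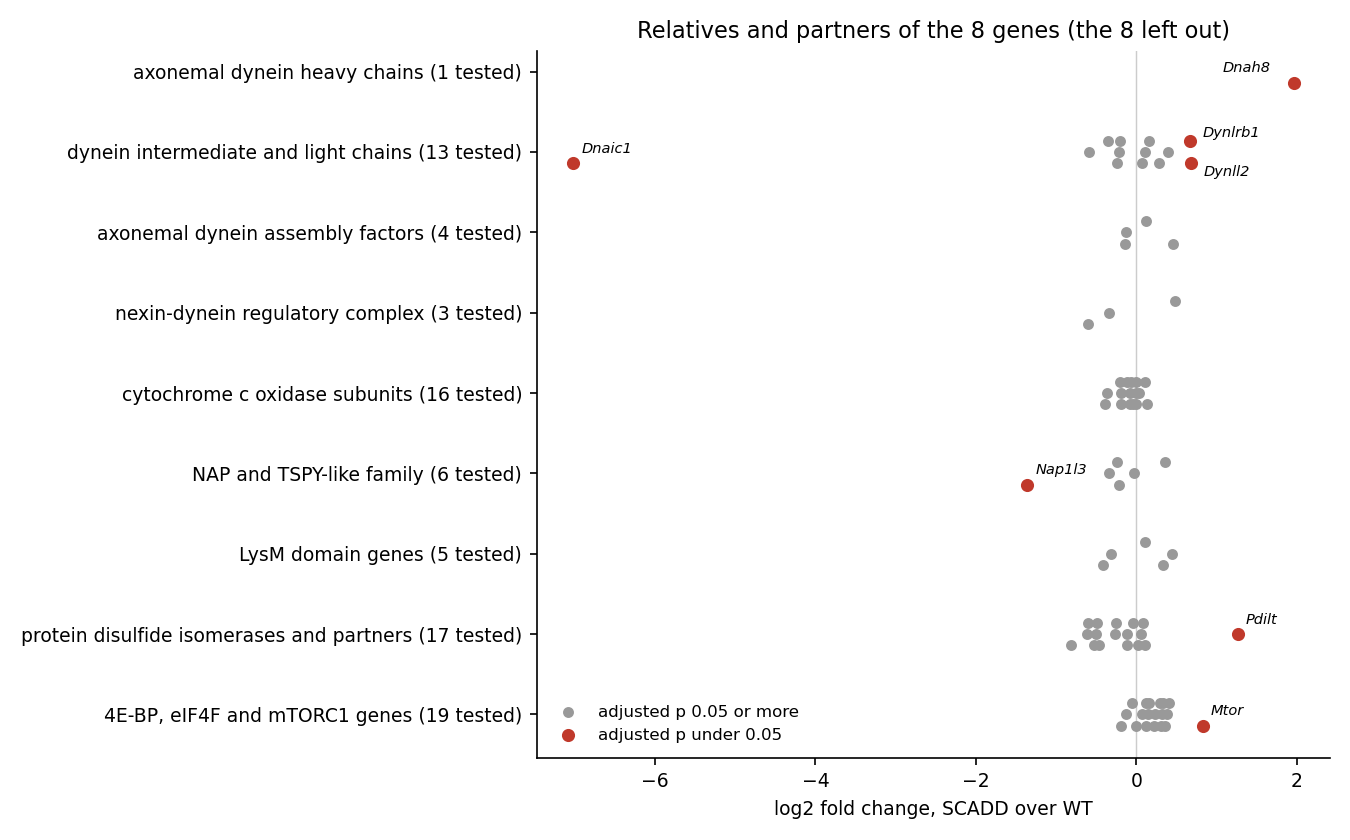
Log2 fold change, SCADD over WT, of each tested gene on the 9 family lists, 1 row per list with the number tested; the 8 genes themselves are left out, and vertical offsets within a row separate points. The 7 genes at an adjusted p under 0.05 (edgeR) are named, with Dnaic1 far to the left and Dnah8 farthest to the right, while the cytochrome c oxidase subunits lie between -0.39 and 0.13.

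Genes near the 8 members were tested next, to see whether the differences extended along the chromosome. Within 500 kb of a member, 92 genes could be tested and 9 passed (9.78%, against 7.02% of all genes), 3 higher and 6 lower in SCADD livers. The median log2 fold change of the 92 was -0.09. For 3 members, Iqca, Tspyl4 and Lysmd2, none of the 3, 8 and 5 neighbours passed with edgeR; 2, 1 and 0 of them were at an unadjusted p under 0.05, limma-voom called none, and DESeq2 called 1 near Iqca. The count of 9 was 3 without SCADD replicate 1 and 4 without any 1 of the WT libraries.

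The neighbour nearest to Dnah17 that passed was Cyth1, a guanine nucleotide exchange factor gene for ARF proteins, which ends 1385 bases upstream of Dnah17 on the same strand. It had 110, 102 and 154 CPM in SCADD livers, against 24.2, 21.9 and 23.6 CPM in WT livers. All 3 SCADD libraries lay above 100 CPM and all WT libraries below 25 CPM. Cyth1 rose by a log2 fold change of 2.39 (SE 0.17, with adjusted p = 3.81e-05 in edgeR), or 5.24-fold. It passed in all 15 alternative settings, but with RSEM expected counts the log2 fold change was 1.80, a smaller fold. On the other side, Pgs1 had a log2 fold change of -0.02 (SE 0.18, with adjusted p = 0.972 in edgeR), and none of the other 15 genes tested around Dnah17 passed.

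Near Erp27, Gucy2c and Mgp were lower in SCADD livers, as Erp27 was. Gucy2c, the guanylin receptor gene, lies 126 kb downstream and had 1.67, 2.69 and 2.61 CPM in SCADD livers, against 8.28, 9.71 and 9.87 CPM in WT livers. It fell by 2.01 on the log2 scale (SE 0.21, with adjusted p = 0.000372 in edgeR) and passed in all 15 settings. Mgp, matrix Gla protein, the nearest tested gene on that side at 31.5 kb, had 0.449, 0.661 and 0.434 CPM in SCADD livers, against 2.57, 1.36 and 1.24 CPM in WT livers, and fell by 1.73 on the log2 scale (SE 0.38, with adjusted p = 0.0224 in edgeR). Mgp did not pass without SCADD replicate 1 (0.0863), WT replicate 1 (0.0626) or WT replicate 2 (0.0504). Arhgdib, 1475 bases upstream of Erp27, had a log2 fold change of 0.22 (adjusted p = 0.664 in edgeR).

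Near D330045A20Rik the genes that passed went the other way from it. Serpina7, the gene for thyroxine-binding globulin, lies 395 kb upstream and had 98.6, 109 and 108 CPM in SCADD livers, against 14.6, 11.0 and 10.4 CPM in WT livers. It rose by a log2 fold change of 3.13 (SE 0.16, with adjusted p = 3.89e-06 in edgeR), or 8.77-fold, and passed in all 15 settings. The RIKEN gene 4930513O06Rik beside it rose by 1.43 on the log2 scale (SE 0.35, with adjusted p = 0.0359 in edgeR), but did not pass when any 1 library was left out (0.0529 to 0.131). With all 6 libraries, 4930513O06Rik also did not pass by DESeq2 (adjusted p = 0.0772) or by edgeR with a replicate block (adjusted p = 0.0505). Rnf128, a ubiquitin ligase gene 8734 bases downstream of D330045A20Rik, had a log2 fold change of -0.29 (adjusted p = 0.217 in edgeR).

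Around Cox6b2, 3 of 20 tested neighbours passed, all lower in SCADD livers. Tmem238, the nearest tested gene upstream at 31.5 kb, fell by 0.86 on the log2 scale (adjusted p = 0.0189 in edgeR), Hspbp1, a co-chaperone gene of Hsp70, by 0.57 (adjusted p = 0.0242 in edgeR) and Isoc2b by 1.59 (adjusted p = 0.0422 in edgeR). Isoc2b has a close copy, Isoc2a, in the mouse genome, and whether their reads were told apart was not tested. With RSEM expected counts the log2 fold change of Isoc2b was -1.70. That of Isoc2a was -0.51 with sense counts (adjusted p = 0.0639 in edgeR). Tmem238 lost the call without SCADD replicate 1 (0.0805), WT replicate 2 (0.0881) or WT replicate 3 (0.0717), Isoc2b without SCADD replicates 1 or 3 or WT replicates 1 or 3 (0.0755 to 0.114), and Hspbp1 without any 1 library other than SCADD replicate 3 (0.0522 to 0.0973). Kmt5c, a histone methyltransferase gene 4278 bases downstream, had a log2 fold change of -0.69 (adjusted p = 0.0574 in edgeR). None of these neighbours fell as far as Cox6b2 (log2 fold change -4.21), which was chosen for its fall.

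At the remaining loci 1 of 34 tested neighbours passed. Near Eif4ebp3, Apbb3, an adaptor of the amyloid precursor protein, fell by 0.56 on the log2 scale (adjusted p = 0.043 in edgeR), and the call was lost without any 1 library other than SCADD replicate 3 (0.0660 to 0.154). The Apbb3 call was also lost in edgeR with RSEM expected counts (adjusted p = 0.0725) and with a replicate block (adjusted p = 0.0610). The closest tested genes to Eif4ebp3, Sra1 at 764 bases and Ankhd1 at 5147 bases, had log2 fold changes of -0.30 (adjusted p = 0.193 in edgeR) and 0.15 (0.680). Upstream of Iqca at 50.6 kb, the chemokine receptor gene Ackr3 had 0.367, 0.377 and 0.186 CPM in SCADD livers, against 2.50, 0.481 and 0.713 CPM in WT livers, and a log2 fold change of -1.95 (SE 0.66) that did not pass (adjusted p = 0.111 in edgeR); it is the 1 gene near Iqca that DESeq2 called. Beside Lysmd2, Tmod3 at 66.1 kb had a log2 fold change of 0.02 (adjusted p = 0.956 in edgeR) and Bmp5 at 138 kb one of 0.08 (0.930). Downstream of Tspyl4, Frk at 182 kb had a log2 fold change of -0.58 (adjusted p = 0.0681 in edgeR).

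**Figure D4:**
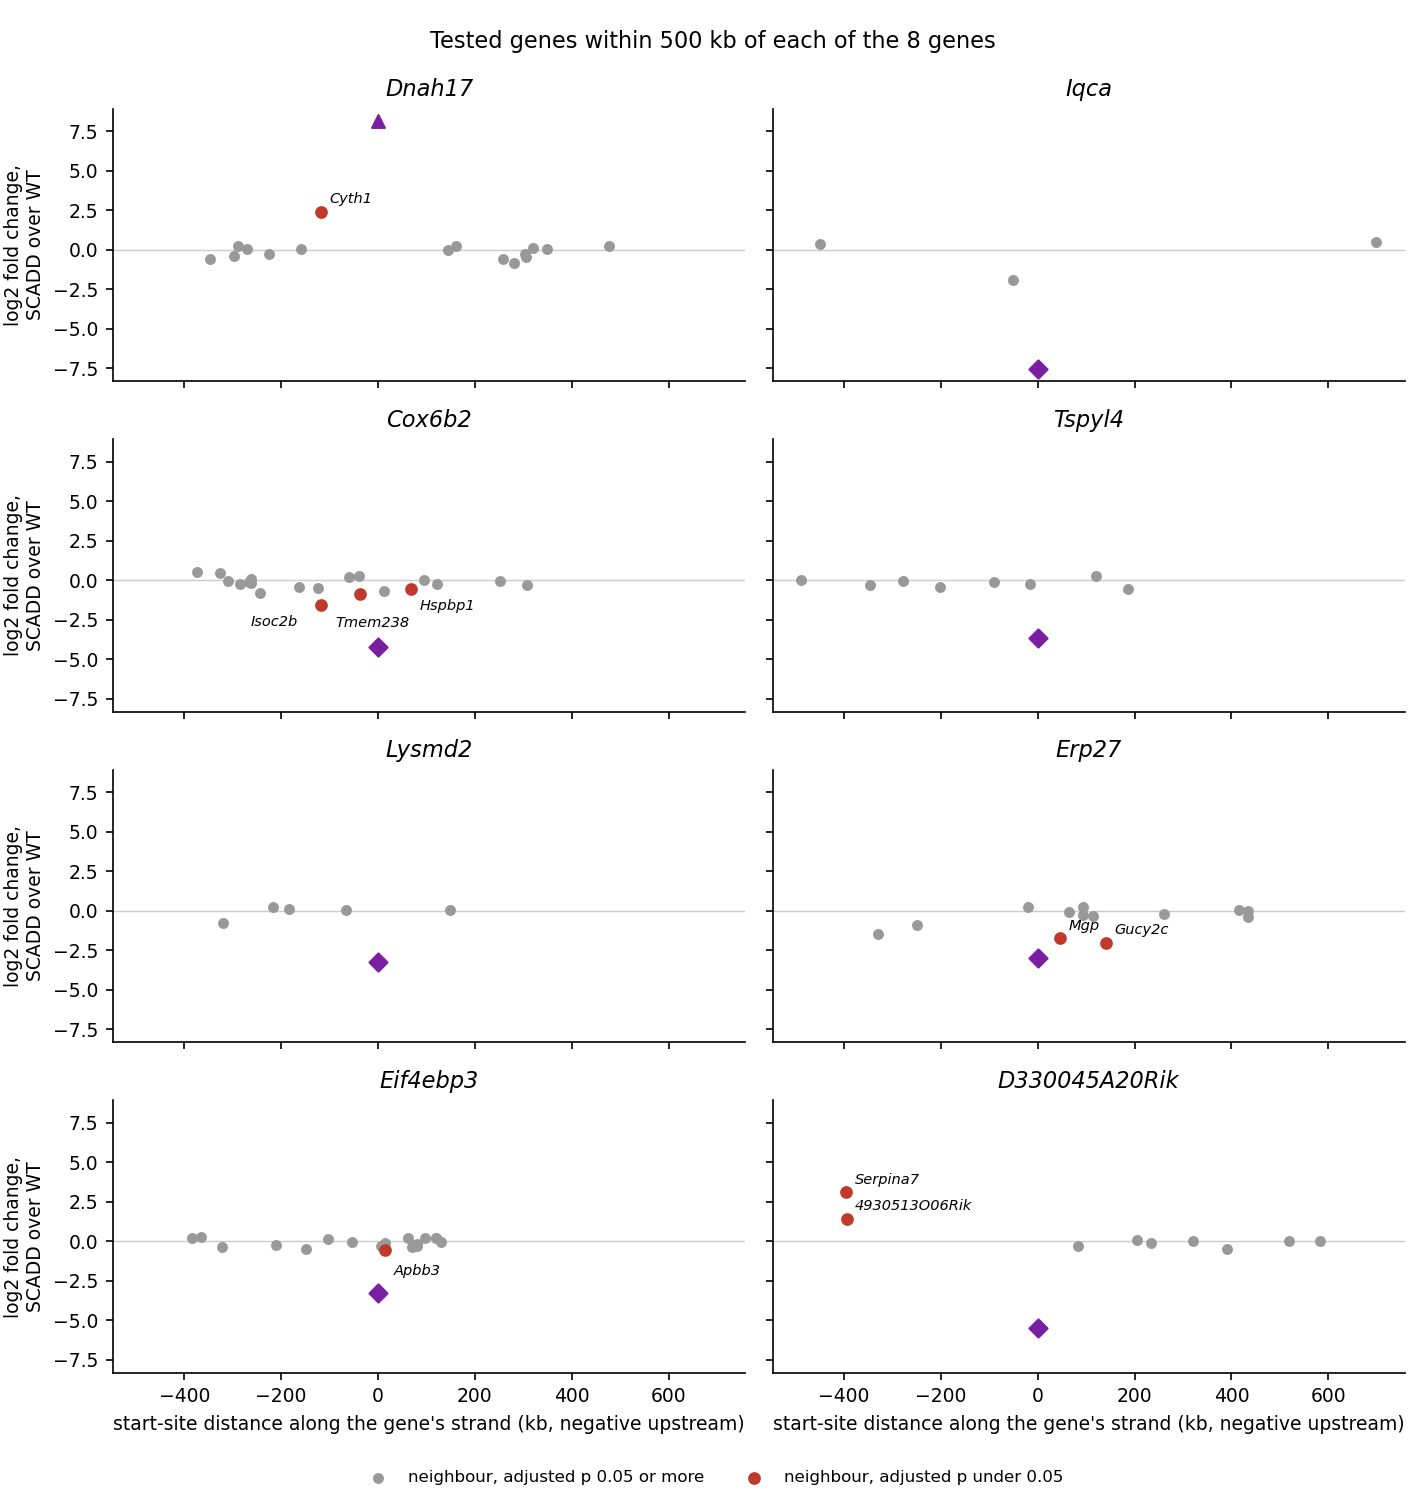
Log2 fold change, SCADD over WT, of every tested gene within 500 kb of each member, against the distance between start sites along the member's own strand (kb, negative upstream), with 1 panel per member. Red points are neighbours at an adjusted p under 0.05 (edgeR), grey points the other neighbours, and purple symbols the members (Dnah17 as an upward triangle at its lower bound, Iqca at the ratio of pooled counts, the others at the fitted value), which were not tested; Cyth1 and Serpina7 stand above 2 and Gucy2c near -2.

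Cell types in the liver piece were compared by their markers. Of 9 hepatocyte markers tested, 1 fell, the urea-cycle gene Cps1 (log2 fold change -0.97, adjusted p = 0.00728 in edgeR, and 0.0504 without WT replicate 2). B and plasma cell markers summed to 24.5 to 33.1 CPM in SCADD livers against 11.6 to 13.6 CPM in WT livers, and 2 of 4 tested, Ighm and Jchain, rose. Jchain lost the call without any 1 of the WT libraries (0.0720 to 0.107). Cholangiocyte markers summed to 33.5 to 46.4 CPM in SCADD livers against 49.5 to 55.9 CPM in WT livers, with 0 of 5 passing by edgeR, DESeq2 or limma-voom and 4 at an unadjusted p under 0.05. Sinusoidal endothelial markers summed to 182 to 264 CPM in SCADD livers against 265 to 302 CPM in WT livers, with 1 of 8 passing (Lyve1, lower; lost without WT replicate 2 at 0.0703 or WT replicate 3 at 0.0625). Of 16 exocrine pancreas markers 13 had fewer than 10 reads, and the list summed to 15.9 to 23.0 CPM in SCADD livers against 26.4 to 35.1 CPM in WT livers; the 1 tested, Cela1, was lower in SCADD livers and lost the call without SCADD replicate 1 (0.108), WT replicate 2 (0.105) or WT replicate 3 (0.111). Kupffer cell markers (180 to 306 CPM in SCADD and 228 to 306 CPM in WT livers), stellate cell markers (356 to 694 CPM in SCADD and 457 to 637 CPM in WT livers) and adipocyte markers (1618 to 5541 CPM in SCADD and 1586 to 2095 CPM in WT livers) overlapped between the groups, and none of their tested genes passed by edgeR, DESeq2 or limma-voom, with 2, 1 and 0 at an unadjusted p under 0.05. The part of any of these lists in the values of the 8 genes was not tested.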

How the data were processed

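Liver RNA of 3 SCADD and 3 WT mice was sequenced. Per the submitters' processing notes, the authors used STAR 2.7.6a and RSEM 1.3.3 with the GRCm38 genome; the annotation release is not given in the sources used here. The deposited counts per gene are STAR's, unstranded and for each strand, and the column holding 96.8% to 97.3% of stranded reads was taken as sense. The deposited expected counts and TPM per gene are RSEM's and were used to check the members and their length-scaled levels; expected counts were rounded for the count test. Gene symbols, positions and overlaps came from GENCODE M21, which matched 55227 of 55487 gene IDs. Reads with no gene made up 1.47% to 2.17% of each library and stayed out of library sizes.

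The main test was edgeR 4.0.16's quasi-likelihood test (R 4.3.3; TMM scaling, filterByExpr with a minimum count of 10, no covariates) on the sense counts of all 6 libraries, with Benjamini-Hochberg adjustment over 13498 genes and a threshold of 0.05. It was first tested on simulated data. Alternatives were DESeq2 1.42.0, limma-voom (limma 3.58.1), other scalings and filters, unstranded counts, RSEM counts, a replicate block and leaving out each library. Intervals for pooled ratios are exact at 95% and cover counting error only. The members and the family and marker lists were chosen with earlier results of these data known. All 8 members were described; relatives were named when called (the 3 smallest p per list, otherwise the 2 smallest), neighbours when nearest, overlapping or called within 500 kb, and like-profile genes as the 2 nearest per member outside the Mup genes (1 such gene is not reported here); Pdia3, Cox6b1, Eif4ebp1, Eif4ebp2 and Dnah3 were added as known partners or relatives after their values were seen. Library replicate numbers were read only as names.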

Additional observations from a re-analysis of the deposited data

How the results depend on the processing

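No fold change of a member or of a called gene named in the text changed sign under the alternatives run, but counts and medians of lists did shift. The fitted values of the members stayed between -4.50 and -4.04 for Cox6b2, -3.79 and -3.43 for Tspyl4, -3.62 and -2.75 for Lysmd2, -3.46 and -2.70 for Erp27, -3.56 and -2.44 for Eif4ebp3 and -6.13 and -5.08 for D330045A20Rik on the log2 scale, each over 15 settings. The lower bound of Dnah17 ran from 182 to 311 when 1 library was left out. With no filter on low counts, 1702 of 24676 genes were called, and leaving out 1 library gave 395 to 1590 in place of 947; it was 517 without SCADD replicate 1, 395 without WT replicate 2, 460 without WT replicate 3, and 1590 without SCADD replicate 3. Upper-quartile scaling moved the split to 470 higher and 482 lower, against 569 and 378. The family lists had 12 calls with DESeq2 (5 higher, 7 lower), 16 with no filter and 4 to 12 with 1 library left out, against 7; with no filter 7 were higher and 9 lower, against 5 and 2, and their median log2 fold change of -0.02 was 0.0017 without SCADD replicate 2 and 0.014 without WT replicate 3. The neighbours had 15 calls with no filter and 3 to 11 with 1 library left out, against 9; without SCADD replicate 1, 2 were higher and 1 lower, against 3 and 6. Outside the Mup block 24 genes passed the on-off limits at 30 reads, against 5 at 100. Without WT replicate 1, and with the limits not scaled to the smaller group, 5 passed at 100. Of these, 1 was low in SCADD and 4 low in WT livers, against 3 and 2. The causes of these shifts were not tested. Groups with 0 to 3 pooled reads allow a bound or a wide interval, not a precise fold. Same-numbered libraries did not deviate together in a way that pairs them (correlations 0.0606, 0.0372 and 0.107), and with a replicate block 1148 genes, 9 family genes and 8 neighbours were called.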
